A study of Rattus norvegicus with 6 samples.

Results

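SR proteins and heterogeneous nuclear ribonucleoproteins (hnRNPs) are the large families of general splicing regulators, here the 31 protein-coding genes, of 32623 genes in the deposited table, whose symbol begins with Srsf and a digit or with Hnrnp. There were 12 Srsf and 19 Hnrnp genes, and each symbol had 1 row. They were measured by RNA sequencing of primary ventricular myocardial cells from Sprague-Dawley rats at postnatal day 1 to 3. The 3 siMETTL3 libraries came from cells transfected with a small interfering RNA against Mettl3 for 24 h and then given lipopolysaccharide (LPS), a bacterial endotoxin, for 6 h. The 3 siNC libraries came from cells that received the siNC interfering RNA and the same LPS treatment. The cells of all 6 cultures were a single pool made from several animals. The p-values therefore describe variation among these 6 libraries, part or all of which may be technical. Every library had LPS, so no value is a response to LPS.

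SR proteins bind exonic enhancers through RNA recognition motifs and recruit the spliceosome through a domain rich in arginine and serine. hnRNPs package nascent transcripts, and many of them repress nearby splice sites or act on export, stability and translation. Mettl3 is the catalytic subunit of the enzyme that places N6-methyladenosine (m6A) on messenger RNA, and Hnrnpc and Hnrnpa2b1 have been described as proteins whose binding to RNA changes with that mark. In heart muscle, splicing regulators control the isoforms of titin and of calcium-handling proteins during the switch from fetal to adult forms.

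The families changed little. Of the 29 members with a mean of at least 1 FPKM (fragments per kilobase and per unit of library size, a level scaled to transcript length and depth), 2 rose in siMETTL3 cells, Hnrnpc and Hnrnpu, 0 fell and 27 did not pass. The test was limma, a linear model on log2(FPKM + 1) with Benjamini-Hochberg adjustment over all 13105 tested genes and a threshold of 0.05. Genes called higher made up 6.53% of all tested genes and genes called lower 4.40%, so 2 of 29 members, 6.90%, is a share near the background. By edgeR on the deposited counts, which rescales the libraries by their composition, 0 members were called in either direction, against 2.39% of genes called higher and 4.90% called lower, 7.28% in all. At an unadjusted p under 0.05 there were 10 of 29 members by limma (34.5%), against 31.4% of all tested genes, and 3 of 30 by edgeR (10%), against 27.3% of the genes tested by both. By DESeq2 the same 2 members were called as by limma, against 6.16% of genes called higher and 8.48% called lower.

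Mettl3 itself had 10.3, 10.6 and 9.90 FPKM in siMETTL3 replicates 1, 2 and 3, against 18.2, 17.2 and 15.3 FPKM in siNC replicates 1, 2 and 3. Every siMETTL3 library was below every siNC library, and the mean was 60.6% of that in siNC cells (log2 fold change -0.67, SE 0.0741, limma adjusted p = 0.00661). Total counts were 72483469 to 74401683 in siMETTL3 libraries and 71202469 to 76668751 in siNC libraries. Of the cardiomyocyte markers 0 of 11 tested were called by limma, 2 were called lower by edgeR (Myh7, adjusted p = 0.0172, and Actc1, adjusted p = 0.0295) and 4 by DESeq2, and their summed level was 20800 to 24300 FPKM in siMETTL3 and 24500 to 28500 FPKM in siNC libraries. By limma 6 of 9 fibroblast markers fell (summed level 909 to 968 FPKM in siMETTL3 and 1490 to 1560 FPKM in siNC), as did 6 of 7 macrophage markers (40.6 to 52.8 FPKM in siMETTL3 and 77.7 to 94.4 FPKM in siNC). Of the smooth muscle markers 4 of 8 fell, of the endothelial markers 2 of 4 rose and 1 fell, and of the markers of dividing cells 1 of 10 fell (377 to 393 FPKM summed in siMETTL3 and 417 to 444 FPKM in siNC). Every marker found in the table had counts in every library. Their part in the results on the splicing regulators was not tested, and in bulk samples fewer cells of a type and less RNA per cell cannot be told apart.

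The members spanned a wide range of levels. Of the 31, 10 averaged at least 100 FPKM over the 6 libraries, 19 lay between 10 and 100 FPKM, and 2 lay below 1 FPKM and were not tested. The highest was Hnrnpa2b1, and 13 members were among the 1000 highest genes of the table. After it came Hnrnpa3 (251 FPKM), Hnrnpa1 (216 FPKM), Hnrnpk (182 FPKM), Hnrnpf (162 FPKM) and Hnrnpl (149 FPKM), means over 6 libraries. Srsf5 (138 FPKM), Hnrnpab (136 FPKM) and Hnrnpu (134 FPKM) followed and overlapped one another from library to library, ahead of Srsf2 (116 FPKM). The lowest tested members were Srsf9 (13.7 FPKM) and Hnrnph3 (19.4 FPKM). Srsf12, a repressor of SR-protein activity related to Srsf10, had 0.645, 0.441 and 0.402 FPKM in siMETTL3 replicates 1, 2 and 3, against 0.407, 0.652 and 0.572 FPKM in siNC replicates 1, 2 and 3. Those ranges overlapped. Srsf8 had a count of 0 in all 6 libraries. Replicates agreed closely, with a median coefficient of variation of 3.29% in siMETTL3 and 3.16% in siNC over the 29 tested members.

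**Figure D1:**
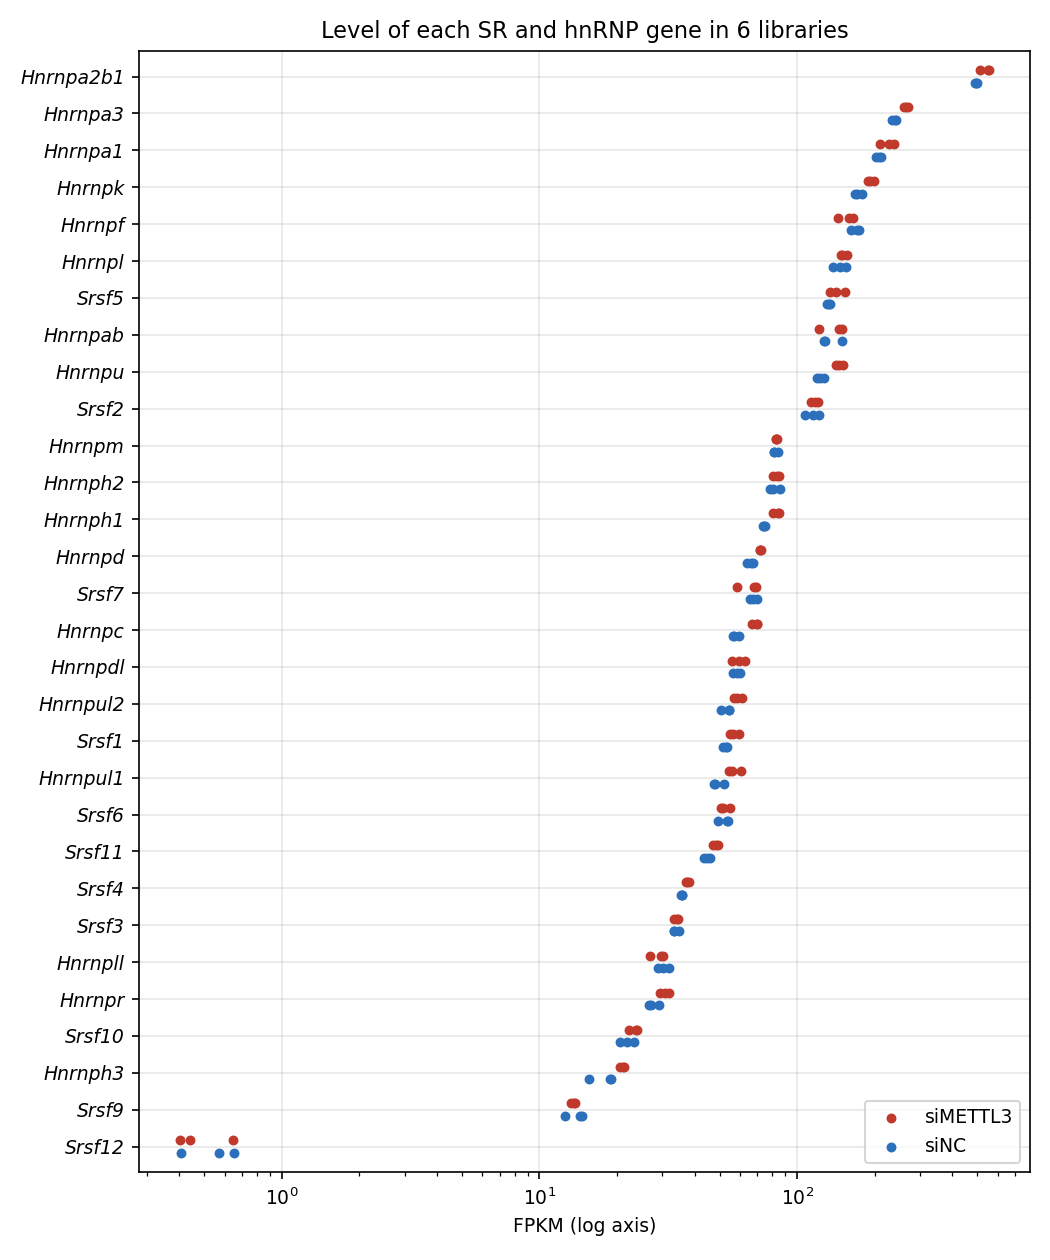
Level of each member in each library, in FPKM on a log axis, with the 3 siMETTL3 libraries above the 3 siNC libraries of the same gene and Srsf8, at a count of 0 throughout, left out. Hnrnpa2b1 is highest at 490 to 556 FPKM, Srsf12 lies below 1 FPKM, and the difference between groups is small beside the difference between genes.

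Hnrnpc, which forms the tetramer that binds uridine-rich tracts of nascent transcripts, had 66.6, 69.8 and 69.6 FPKM in siMETTL3 replicates 1, 2 and 3, against 56.9, 59.6 and 56.2 FPKM in siNC replicates 1, 2 and 3. All siMETTL3 libraries were above all siNC libraries, and the means were 68.6 ± 1.81 and 57.6 ± 1.82 FPKM (SD, n = 3 each). On the log2 scale limma put the difference at 0.25 (SE 0.0491, adjusted p = 0.0280) and edgeR put it at 0.17 (adjusted p = 0.0940). The table places Hnrnpc (ENSRNOG00000011621) at bases 28486617 to 28517353 of chromosome 15, minus strand, in a build it does not state and 192947 bases from Mettl3. Hnrnpu, the scaffold attachment factor that binds both chromatin and RNA, had 145, 151 and 142 FPKM in siMETTL3 replicates 1, 2 and 3, against 123, 119 and 127 FPKM in siNC replicates 1, 2 and 3. Its groups did not overlap either (log2 fold change 0.24, SE 0.0517, limma adjusted p = 0.0332), while the edgeR value was 0.17 with an adjusted p of 0.0978. The table places it (ENSRNOG00000033790) on chromosome 13 from 96225912 to 96238572. Neither call held with 5 libraries, which lowers the power by construction: the limma adjusted p of Hnrnpc was 0.0815, 0.0704 and 0.0789 without siMETTL3 replicates 1, 2 and 3 and 0.108, 0.0589 and 0.0585 without siNC replicates 1, 2 and 3. For Hnrnpu it was 0.106, 0.0768, 0.0681, 0.115, 0.101 and 0.0506 in the same order, while the fold change of either gene stayed between 0.22 and 0.27.

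The 250 bases upstream of the annotated start of these 2 genes are shown because they are the members that limma called. They are RefSeq sequences of build GRCr8, both on the minus strand, Hnrnpc at chr15:27282716-27282965 and Hnrnpu at chr13:92618581-92618830, with capitals at matches on either strand to the GC box GGGCGG, the CCAAT box CCAAT and the ETS core CCGGAA.
Hnrnpc: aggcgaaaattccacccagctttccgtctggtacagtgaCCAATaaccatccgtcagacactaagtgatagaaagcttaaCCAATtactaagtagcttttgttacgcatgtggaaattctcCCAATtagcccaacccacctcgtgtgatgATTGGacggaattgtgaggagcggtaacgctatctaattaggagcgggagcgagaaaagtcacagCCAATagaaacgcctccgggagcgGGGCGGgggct
Hnrnpu: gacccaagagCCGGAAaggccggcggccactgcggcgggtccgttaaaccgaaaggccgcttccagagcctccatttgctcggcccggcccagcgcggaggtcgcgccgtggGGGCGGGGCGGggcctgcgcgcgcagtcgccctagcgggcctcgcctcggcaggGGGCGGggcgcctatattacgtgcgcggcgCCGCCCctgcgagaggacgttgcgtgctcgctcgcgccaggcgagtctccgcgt
The windows of the 2 called genes were unlike: Hnrnpc held 5 CCAAT boxes, 1 GC box and 49.6% G and C, whereas Hnrnpu held 0 CCAAT boxes, 4 GC boxes, of which 2 overlap in 1 run of capitals, and 75.2% G and C. RefSeq gave a window for 30 of the 31 members. A GC box was in 22 of these 30 (73.3%), against 32.4% of the windows of all 27457 genes, a CCAAT box in 18 (60.0%, against 34.3%) and an ETS core in 12 (40.0%, against 13.4%). TATAAA was in 5 of the 30 windows (16.7%), against 13.1% of all genes. The members' windows had a median of 62.2% G and C, against 52.0% over all genes, and motifs made of G and C are found more often in such sequence. The 27457 windows were not limited to genes expressed in these cells, and the members were not compared with expressed genes alone. A match is a run of letters and not a measured binding site.

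Among the hnRNPs of the A group, which bind UAGG-like sequences and oppose SR proteins at many exons, no member passed. Hnrnpa2b1 had 550, 513 and 556 FPKM in siMETTL3 replicates 1, 2 and 3, against 500, 490 and 493 FPKM in siNC replicates 1, 2 and 3. Its siMETTL3 libraries were all higher, with replicate 2 the closest to siNC (log2 fold change 0.13, 95% interval -0.02 to 0.27, limma adjusted p = 0.204), while the edgeR value was 0.05 with an adjusted p of 0.656. Hnrnpa3 had 264, 259 and 268 FPKM in siMETTL3 replicates 1, 2 and 3, against 241, 234 and 239 FPKM in siNC replicates 1, 2 and 3. The groups did not overlap, with 0.15 on the log2 scale between them (SE 0.0487, limma adjusted p = 0.0943). Hnrnpa1, the best studied splicing repressor of the group, averaged 224 ± 13.6 FPKM in siMETTL3 and 207 ± 5.23 FPKM in siNC, and its groups overlapped (limma adjusted p = 0.270). RefSeq lists 51 pseudogenes of Hnrnpa1, whose reads could be shared with it. After quantile normalization Hnrnpa1 was called together with Hnrnpc.

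Among the other hnRNPs, the largest limma log2 fold changes after Hnrnpc and Hnrnpu were those of Hnrnph3, Hnrnpul1, Hnrnph1 and Hnrnpk, and none of these passed. Hnrnph3 averaged 21.0 ± 0.382 FPKM in siMETTL3 and 17.8 ± 1.91 FPKM in siNC (log2 fold change 0.23, limma adjusted p = 0.111), with siNC replicate 3, at 15.6 FPKM, below the others. Hnrnpul1, a relative of Hnrnpu, averaged 56.7 ± 3.18 FPKM in siMETTL3 and 49.1 ± 2.41 FPKM in siNC (0.20, limma adjusted p = 0.0778). Hnrnph1, which like Hnrnpf binds runs of guanine, averaged 83.1 ± 2.19 FPKM in siMETTL3 and 74.3 ± 0.823 FPKM in siNC (0.16, limma adjusted p = 0.0673). Hnrnpk, which binds cytosine-rich sequences, averaged 192 ± 5.03 FPKM in siMETTL3 and 172 ± 4.80 FPKM in siNC (0.16, limma adjusted p = 0.0892). Hnrnpr, Hnrnpul2 and Hnrnpd had log2 fold changes of 0.12 to 0.15 with groups that did not overlap, and none of them passed. Hnrnpm (0.01), Hnrnpdl (0.02), Hnrnph2 (0.03), Hnrnpab (0.04) and Hnrnpl (0.04) lay near 0 on the log2 scale with overlapping groups. Below 0 were Hnrnpf, at 159, 144 and 164 FPKM in siMETTL3 replicates 1, 2 and 3, against 173, 171 and 161 FPKM in siNC replicates 1, 2 and 3 (-0.12, limma adjusted p = 0.275), and Hnrnpll (-0.06). The groups overlapped for both. By edgeR Hnrnpf was at -0.19 (adjusted p = 0.139), against 0.17 for Hnrnpc. No member tested by limma had an edgeR change of larger size.

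No SR gene passed in either test. Srsf5 had 142, 134 and 153 FPKM in siMETTL3 replicates 1, 2 and 3, against 133, 134 and 130 FPKM in siNC replicates 1, 2 and 3. All siMETTL3 libraries were above all siNC libraries, but replicate 2 by less than the rounding of these values (log2 fold change 0.11, 95% interval -0.04 to 0.25, limma adjusted p = 0.263). Srsf2, whose loss from the mouse heart causes dilated cardiomyopathy, had 113, 120 and 117 FPKM in siMETTL3 replicates 1, 2 and 3, against 115, 121 and 107 FPKM in siNC replicates 1, 2 and 3. The groups overlapped, and the log2 fold change was 0.03 (95% interval -0.12 to 0.18, limma adjusted p = 0.770). Srsf1, whose loss in the mouse heart disturbs calcium handling, averaged 56.9 ± 2.48 FPKM in siMETTL3 and 52.6 ± 0.874 FPKM in siNC (0.11, limma adjusted p = 0.195). Srsf3, an adaptor for messenger RNA export, averaged 33.9 ± 0.651 FPKM in siMETTL3 and 33.9 ± 0.900 FPKM in siNC (95% interval of the log2 fold change -0.11 to 0.11). It is the only member for which the table lists retained-intron and nonsense-mediated-decay transcripts. Srsf10 (0.09), Srsf11 (0.11), Srsf4 (0.07) and Srsf6 (0.01) were above 0 and Srsf7 (-0.06) and Srsf9 (-0.03) below 0 on the log2 scale. Of these, Srsf4 and Srsf11 had groups that did not overlap.

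The 95% intervals of the limma fold changes, each for 1 gene and not adjusted for their number, ran from -0.27 (Hnrnpf) to 0.42 (Hnrnph3) over the 29 tested members. All 29 intervals lay inside a 1.5-fold change in either direction. The interval holds for the FPKM as deposited, and a rescaling of the libraries shifts every member alike.

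**Figure D2:**
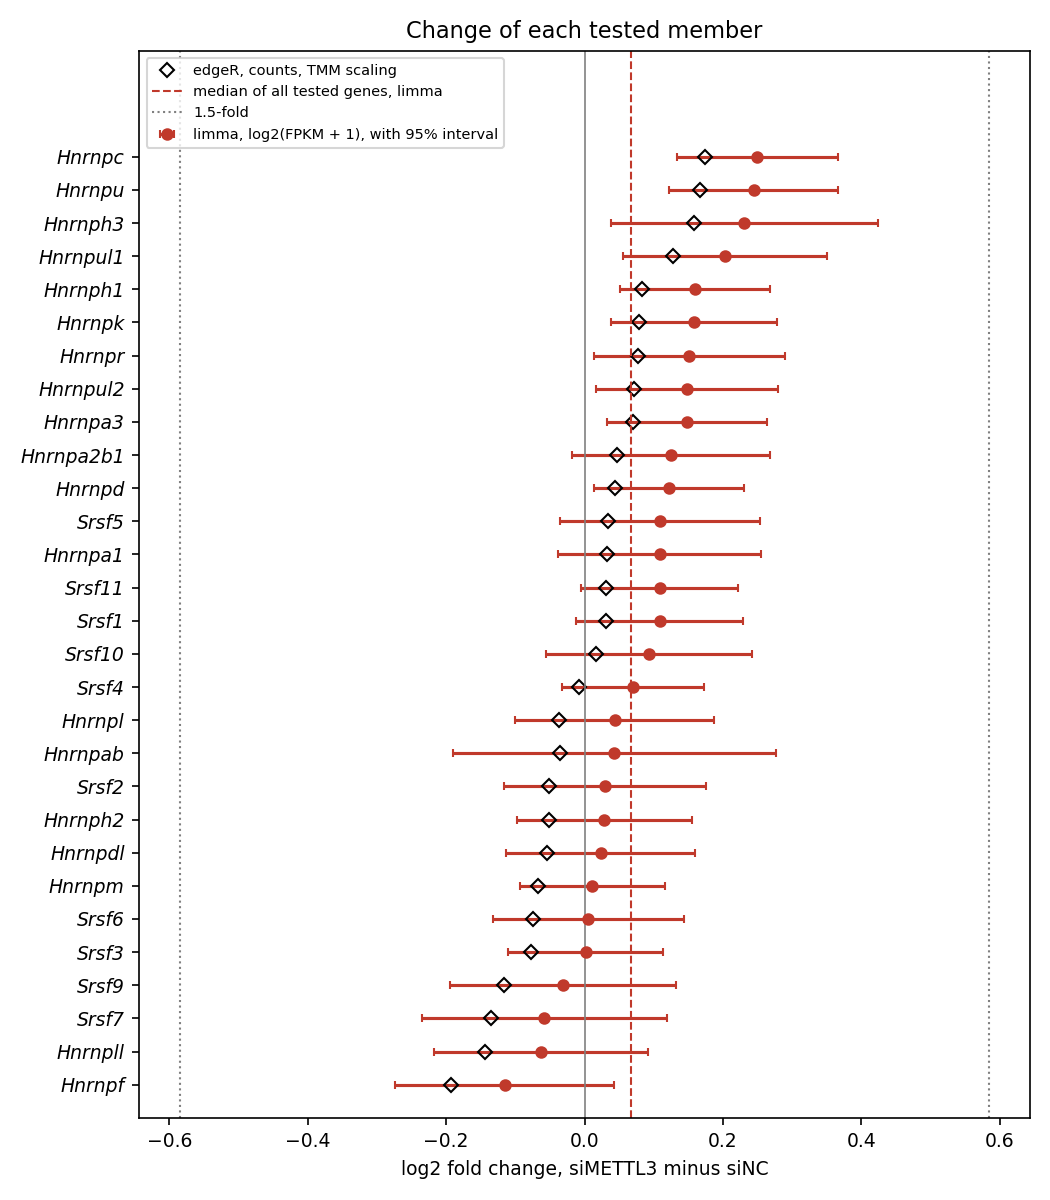
Log2 fold change, siMETTL3 minus siNC, of the 29 tested members, by limma on log2(FPKM + 1) with its 95% interval (circles and bars) and by edgeR on counts (diamonds). Each diamond lies left of its circle, and all intervals lie inside the dotted lines at 1.5-fold.

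How many members lay above 0 depended on the scaling, which also moved the median of all genes. On FPKM as deposited 25 of 29 members had a fold change above 0, where 63.7% of all tested genes did, and 15 had groups that did not overlap, all higher in siMETTL3, where 26.4% of all tested genes were higher and 11.5% lower in that way. The median log2 fold change was 0.11 over the members and 0.07 over all tested genes. By edgeR it was 0.03 over the same 29 members and -0.0023 over the genes tested by both. On that scale 16 of 29 members were above 0, where 49.6% of all genes tested by edgeR were. Summed over the 19 Hnrnp genes, the level was 2442, 2409 and 2515 FPKM in siMETTL3 replicates 1, 2 and 3, against 2293, 2268 and 2285 FPKM in siNC replicates 1, 2 and 3. Summed over the 12 Srsf genes it was 585.9, 581.5 and 605.7 FPKM in siMETTL3, against 570.9, 578.2 and 560.0 FPKM in siNC replicates 1, 2 and 3. Neither sum overlapped between the groups on this scale. Apart from these sums, 11 of 19 Hnrnp genes and 4 of 10 tested Srsf genes had groups that did not overlap, and the median log2 fold change was 0.13 for Hnrnp and 0.05 for Srsf genes, by edgeR 0.05 for Hnrnp and -0.05 for Srsf genes, Srsf12 included.

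**Figure D3:**
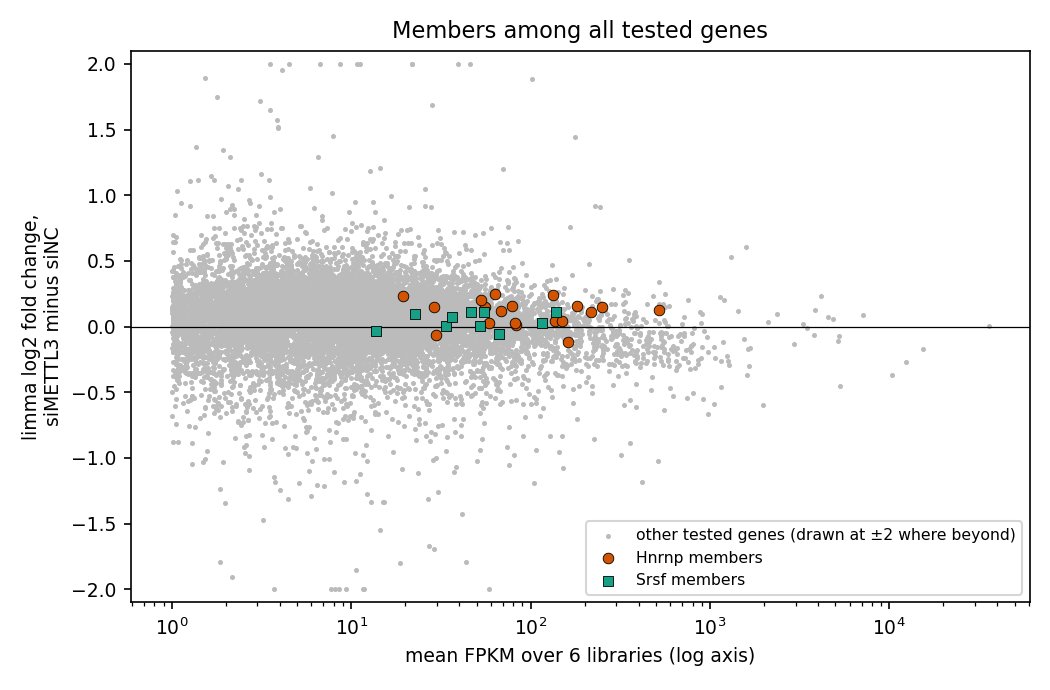
Limma log2 fold change, siMETTL3 minus siNC, against the mean FPKM of the 6 libraries (log axis) for the 13105 tested genes, with the 19 Hnrnp members as circles and the 10 tested Srsf members as squares. The members lie between -0.12 and 0.25, within the band of the other genes of their level.

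A ratio of 2 genes within a library does not depend on the scaling of that library. The ratio of the summed Srsf to the summed Hnrnp level was 0.240, 0.241 and 0.241 in siMETTL3 replicates 1, 2 and 3, against 0.249, 0.255 and 0.245 in siNC replicates 1, 2 and 3. The siMETTL3 values were all lower, in a comparison chosen after the values had been seen. The ratio of Srsf1 to Hnrnpa1, which oppose each other in the choice of splice sites, was 0.242, 0.284 and 0.239 in siMETTL3 replicates 1, 2 and 3, against 0.248, 0.249 and 0.265 in siNC replicates 1, 2 and 3. Its ranges overlapped, with a difference of 0.001 between the mean log2 ratios. In all, 22 ratios were compared, within subfamilies and for Srsf1 with Hnrnpa1, and 5 did not overlap between groups. Many of the ratios share a gene and are not independent, and the share over other pairs of genes was not computed. With 3 libraries a group the smallest p that the exact 2-sided permutation test allows is 0.1, and after adjustment over the 22 ratios the smallest was 0.4. The largest differences without overlap were in the group that binds guanine runs. The ratio of Hnrnpf to Hnrnph1 was 1.97, 1.70 and 1.96 in siMETTL3 replicates 1, 2 and 3, against 2.30, 2.33 and 2.17 in siNC replicates 1, 2 and 3 (difference of the mean log2 ratio -0.28). That of Hnrnpf to Hnrnph3 was 7.73, 6.75 and 7.81 in siMETTL3 replicates 1, 2 and 3, against 9.23, 9.01 and 10.4 in siNC replicates 1, 2 and 3 (-0.36). The other ratios without overlap, Hnrnph1 to Hnrnph2 (0.13), Hnrnpl to Hnrnpll (0.11) and Hnrnpu to Hnrnpul2 (0.10), were higher in siMETTL3. The ratios among Hnrnpa1, Hnrnpa2b1 and Hnrnpa3 differed by at most 0.04 on the log2 scale, with overlapping groups.

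**Figure D4:**
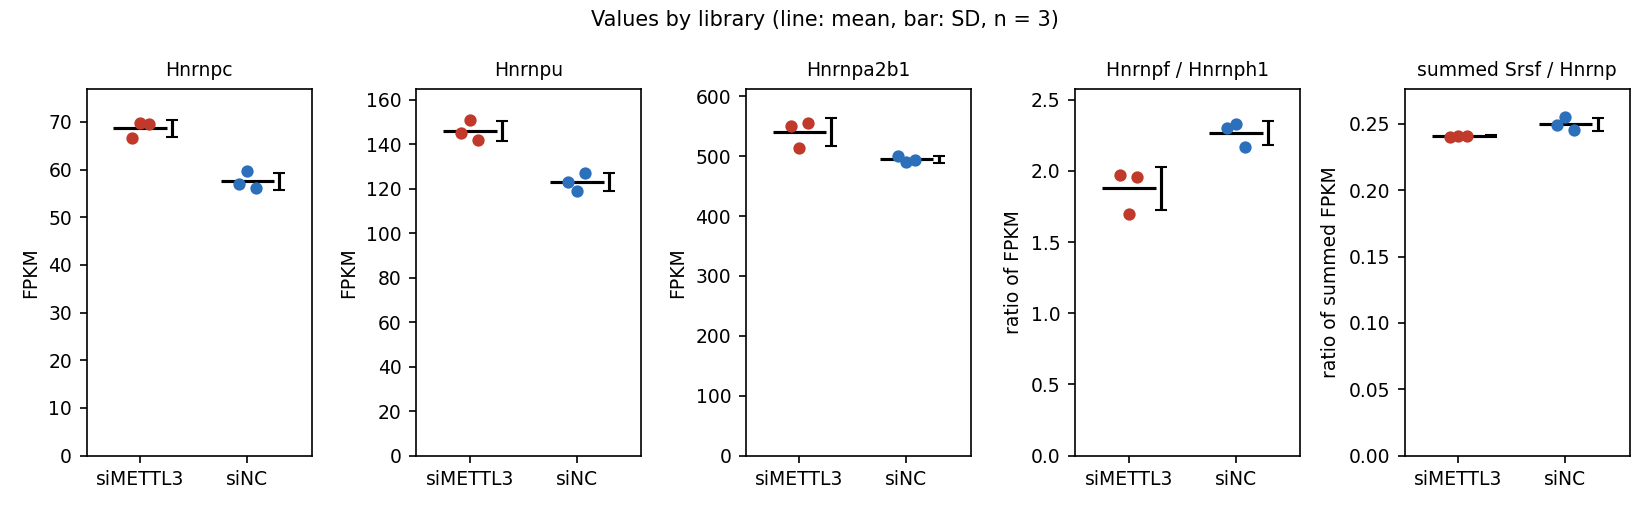
Values by library for Hnrnpc, Hnrnpu and Hnrnpa2b1 (FPKM), for the ratio of Hnrnpf to Hnrnph1 and for the ratio of summed Srsf to summed Hnrnp levels, with siMETTL3 left and siNC right; lines are means and bars the SD of 3 libraries. The 3 genes are higher and the 2 ratios lower in siMETTL3, with no overlap between groups.

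Of 7 loci with a numbered name that the table describes as hnRNPs or RefSeq names as one, 2 had a count of 0 in some libraries and a level near that of the named gene in others, and 5 had counts in all 6 libraries. LOC100911576 on chromosome 14, described as like Hnrnpc, had 58.8 and 53.0 FPKM in siMETTL3 replicates 1 and 3 and a count of 0 in siMETTL3 replicate 2, against 49.8, 52.7 and 47.9 FPKM in siNC replicates 1, 2 and 3. In those 5 libraries it stood at 76.2% to 88.4% of Hnrnpc, and in siMETTL3 replicate 2, where it was listed at 0, Hnrnpc had 69.8 FPKM, close to the 69.6 FPKM of siMETTL3 replicate 3. LOC103689931 on chromosome 10, described as hnRNP A/B, had 131 FPKM (14487 counts) in siMETTL3 replicate 1 and a count of 0 in the other 5 libraries. Hnrnpab had 122 FPKM in siMETTL3 replicate 1, and 145 and 149 FPKM in siMETTL3 replicates 2 and 3, against 127, 128 and 149 FPKM in siNC replicates 1, 2 and 3. Adding such loci to the gene they are described as, an alternative chosen after seeing the data, gave Hnrnpc a log2 fold change of -0.07 (limma adjusted p = 0.842), because the sum lacks the second locus in siMETTL3 replicate 2. The rise of Hnrnpc was called for its own row and not for the sum. That sum cannot show whether both loci together rose, because it takes the second as 0 in siMETTL3 replicate 2. How reads were divided between the loci is not given in the sources used here. LOC100911361, described as like Hnrnpa3, had 18.0, 16.9 and 23.6 FPKM in siMETTL3 replicates 1, 2 and 3, against 6.78, 14.3 and 12.1 FPKM in siNC replicates 1, 2 and 3 (log2 fold change 0.81, limma adjusted p = 0.0836), or 2.81% to 8.81% of Hnrnpa3. LOC681410, to which RefSeq gives the symbol Hnrnpa0 and which the symbol rule therefore missed, had 32.5, 31.0 and 34.5 FPKM in siMETTL3 replicates 1, 2 and 3, against 28.0, 28.7 and 22.7 FPKM in siNC replicates 1, 2 and 3. Its groups did not overlap, and it did not pass (0.30, limma adjusted p = 0.0893).

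**Figure D5:**
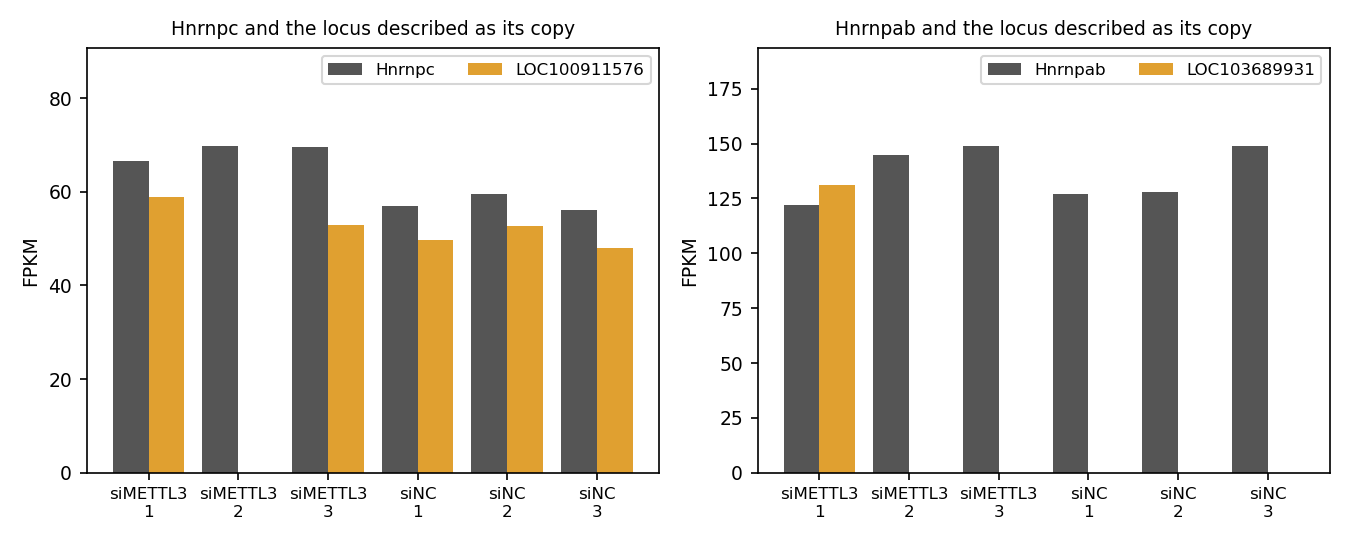
FPKM in each library of Hnrnpc beside LOC100911576 and of Hnrnpab beside LOC103689931, siMETTL3 replicates left and siNC replicates right. LOC100911576 is missing only in siMETTL3 replicate 2 and LOC103689931 present only in siMETTL3 replicate 1.

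Other splicing genes were taken from 7 lists of 190 symbols, of which 184 were found and 170 tested. By limma 20 of the 170 rose (11.8%, against 6.53% of all tested genes) and 0 fell, and by edgeR 4 rose and 0 fell, 2.23% of those it tested against 2.39% of all genes. With the minimum mean raised to 5 FPKM, limma called 21 listed genes and 8.93% of all tested genes higher. The share of listed genes at that minimum was not computed, so 8.93% is not the background for the 11.8%. The 4 that passed both tests were the RNA-binding protein Ewsr1 (52.3 ± 1.07 FPKM in siMETTL3 and 40.7 ± 2.24 FPKM in siNC cells), Safb, Prpf4b and Rbm4. Among 27 relatives of the hnRNPs, 5 rose: Ewsr1 (log2 fold change 0.36), the scaffold attachment factor Safb (0.29), the cytosine-binding Pcbp4 (0.35), the polypyrimidine-tract binding repressor Ptbp1 (0.24) and Sltm (0.26). Among 13 genes of the kinases, phosphatases and import of SR proteins, 3 rose: the kinase Prpf4b (0.41), topoisomerase Top1 (0.38), which also phosphorylates SR proteins, and the phosphatase subunit Ppp1cc (0.22). None of the 6 Srpk and Clk kinases tested passed by limma: the log2 fold change was 0.27 for Srpk1, 0.15 for Srpk2, -0.27 for Srpk3, 0.10 for Clk1, -0.03 for Clk3 and 0.14 for Clk4. By DESeq2 Srpk3 was lower (-0.36, adjusted p = 0.0378), the 1 listed splicing gene so called, while edgeR gave it an adjusted p of 0.101. Among 19 muscle and tissue-specific factors, 4 rose: Rbm20, the regulator of titin splicing (32.2 ± 2.68 FPKM in siMETTL3 and 25.2 ± 2.15 FPKM in siNC, 0.34), Rbm24 (0.29), which drives muscle-specific exons, and the similar neighbours Rbm4 (0.34) and Rbm4b (0.33), whose reads may be shared.

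Of 24 SR-related proteins 4 rose, namely Prpf38b (0.26), Acin1 (0.23), Srek1 (0.29) and Luc7l3 (0.22, log2 fold change each). Tra2b, the SR-like activator of many alternative exons, did not pass (-0.03). Of 54 genes of the core spliceosome 1 rose, Sart3 (0.28), or 1.85%. Of 17 genes of nonsense-mediated decay and the exon junction complex 2 rose, Smg5 (0.27) and Casc3 (0.22), and of 16 genes of nuclear export and of binding to m6A-marked transcripts 1 rose, Thoc5 (0.23). Median log2 fold changes were 0.19 for the SR-related proteins, 0.18 for the muscle and tissue-specific factors, 0.14 for the kinases, 0.12 for the hnRNP relatives, 0.11 for the export genes, 0.05 for the core spliceosome and 0.04 for nonsense-mediated decay, beside 0.11 for the members and 0.07 for all tested genes. In the 6 fits that left out 1 library, fewer listed genes were called higher than the 20. They numbered 0, 5 and 3 without siMETTL3 replicates 1, 2 and 3. Without siNC replicates 1, 2 and 3 they numbered 0, 3 and 12. Newly called genes are included in these numbers. All genes called fell as well, from 1432 with 6 libraries to between 204 and 861. Ewsr1 and Rbm4 were each called in 4 of these 6 fits, lost without siMETTL3 replicate 1 and without siNC replicate 1.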

How the data were processed

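Per the file headers, the authors deposited 1 table with FPKM and counts per gene and library. Genes with a count of 0 carry 0.0001 FPKM. Bowtie 0.12.2 and a mouse build, mm8, appear in the submitters' processing notes, with no role stated; aligner, quantifier and annotation of this rat table are not given in the sources used here. Within a gene, 98.7% of count-to-FPKM ratios lay within 1% of a constant after library scaling (14527 genes), as the definition of FPKM implies, so the deposited FPKM and counts are one measurement on different scales. How the authors counted is likewise not given there. At 71202469 to 76668751 counts per library, the spread between replicates, not counting error, limits the precision if the counts are raw reads. FPKM, on which the members' levels are given, was tested with limma 3.58.1 (R 4.3.3) on log2(FPKM + 1), for genes with a mean of at least 1, 2-sided, siMETTL3 minus siNC; edgeR 4.0.16 and DESeq2 1.42.0 were run on the counts. Fits were tested on simulated data. The limit on false calls was applied there to limma and edgeR only, because DESeq2 was more liberal. Fold changes are compressed for low genes.

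Members and lists were chosen with earlier results of these data known. Per-library values are given for Hnrnpc, Hnrnpa2b1, called members, the 2 highest genes of each family and Mettl3, and up to 3 called genes of each list are named; Hnrnpf, Luc7l3, Ptbp1, Sltm, Rbm20, the uncalled list genes and the numbered loci were added after their values had been seen. If the deposited counts are raw reads, which is not stated, replicates differed beyond counting error (chi-square per degree of freedom 22.1 to 63.1).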

Additional observations from a re-analysis of the deposited data

How the results depend on the processing

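The members called higher, 2 as reported, numbered 0 by edgeR with or without its filter, after median-ratio scaling of FPKM, and in all 6 fits that left out 1 library (0 to 0). They numbered 1 (Hnrnpu) by limma and 0 by edgeR when members were summed with their described copies, an alternative chosen after seeing the data, where the log2 fold change of Hnrnpc was -0.0721 by limma and -0.0957 by edgeR. No member was called lower in any alternative. Quantile normalization called Hnrnpa1 and Hnrnpc but not Hnrnpu (adjusted p = 0.0779). The call of Hnrnpc and Hnrnpu stood by DESeq2, with a pseudocount of 0.1 and with minimum means of 0.1 and 5 FPKM. The median log2 fold change of the members, 0.1085, was 0.0315 by edgeR, 0.0352 by edgeR without its filter, 0.0400 by DESeq2, 0.0389 after median-ratio scaling, 0.0315 by edgeR with copies summed, and 0.0710 to 0.1188 with 1 library left out. Genes called higher and lower, 856 and 576 as reported, were 360 and 780 after median-ratio scaling and 469 and 752 after quantile normalization. All genes called, 1432 as reported, numbered 2323 by DESeq2 and 204 to 861 with 1 library left out. The listed genes called higher, 20 as reported, numbered 4 by edgeR, with or without its filter and with copies summed, 13 by DESeq2 (which called 1 lower), 6 after median-ratio scaling, 7 after quantile normalization and 0 to 12 with 1 library left out. Replicate numbers did not pair the libraries: the correlations of same-numbered deviations were 0.0346, -0.255 and -0.119. With the replicate block limma called 6 genes, 0 members and 0 listed genes, and edgeR 61, 0 and 0, with a median for the members of 0.0301. If the counts are raw reads, counting error is small at this depth except for Srsf12 and the loci listed at 0.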

Other observations

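Loci that switch between a count of 0 and a high count were counted where the 0 fell in 1 library or in 5 libraries. Loci at 0 in other numbers of libraries were not counted. Of 9201 genes with at least 1000 counts in some library, 12 had a count of 0 in 1 library and at least 1000 counts in the other 5, as LOC100911576 had, and 1, LOC103689931, had at least 1000 counts in 1 library and 0 in the other 5. Both are described as hnRNPs. RefSeq lists 102 pseudogenes named after 14 of the 31 members and none for the other 17, with 51 for Hnrnpa1, 10 for Srsf3, 7 each for Hnrnpk and Srsf7 and 6 for Hnrnpc. Raly, an hnRNP relative of Hnrnpc, had a log2 fold change of -0.12 and did not pass (limma adjusted p = 0.283).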
